A study of Homo sapiens with 39 samples.

Results

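The G1 cyclins and cyclin-dependent kinase (CDK) inhibitors are the genes that set the pace of entry into S phase. The 10 listed genes comprise the D-type cyclins CCND1, CCND2 and CCND3, the E-type cyclins CCNE1 and CCNE2, the CIP/KIP inhibitors CDKN1B and CDKN1C, and the INK4 inhibitors CDKN2A, CDKN2B and CDKN2C. They were taken by symbol, without CDKN1A, from 23710 gene symbols, and all 10 had a row in each of the 5 tables. RNA sequencing had been done on 39 libraries of 2 human cell lines that differed in their amount of TRIM37, which encodes a ubiquitin ligase.

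D-type cyclins activate CDK4 and CDK6, and E-type cyclins activate CDK2. Both kinase pairs phosphorylate the retinoblastoma protein RB1, which releases E2F transcription factors and so the genes of DNA replication. INK4 proteins bind CDK4 and CDK6 and block their pairing with D cyclins, whereas CIP/KIP proteins bind cyclin-CDK2 complexes. CDKN2A also encodes ARF, a second protein from another first exon that stabilises p53.

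RPE1 is a retinal pigment epithelial line immortalised with hTERT, and CHP-134 is a neuroblastoma line. An untreated RPE1 TRIM37 knockout (9 libraries) was set against untreated wild type RPE1 (9 libraries). CHP-134 clone 1 and CHP-134 clone 2, both labelled as partial TRIM37 knockouts (3 libraries each), were set against the same 3 libraries of wild type CHP-134. TetOn clone 4 and TetOn clone 5 are RPE1 lines that carry a doxycycline-inducible TRIM37. In each, 3 libraries treated with doxycycline at 1 µM for 24 h were set against 3 untreated libraries, the transgene being present in both arms. No sample is of doxycycline-treated RPE1 without the transgene, so the drug and the induced gene cannot be told apart. The titles of wild type RPE1 number its libraries as 3 sets of 3, so libraries within a set may share a source, whereas those of the knockout carry a single number. The labels name no clone for the RPE1 knockout, and each CHP-134 mutant line is a single clone. In these comparisons a difference between clones cannot be told apart from one due to TRIM37. Each TetOn line is also a single clone, whose treated and untreated libraries are compared with each other, and its response may be particular to that clone.

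The authors' deposited tables give each gene, in each comparison, its mean count over all libraries, its log2 fold change, the standard error of that change (SE) and an adjusted p-value, named q. No value per library was analysed here, so neither the depth of a library nor the spread between libraries can be given. No source used here says that the replicates were separate cultures, and the q values may therefore measure technical spread. A gene was called at q under 0.05. Genes with the Status Low (mean count up to 10) or Outlier have a q of 1, and the others are called usable. TRIM37 itself was at -1.95 in the RPE1 knockout, -1.66 and -1.75 in CHP-134 clones 1 and 2, and 3.19 and 2.64 in TetOn clones 4 and 5 as log2 fold changes in the authors' deposited tables, and these signs set the direction of each table. Of 10 adrenergic neuroblastoma genes, 8 were above a mean count of 10 in both CHP-134 tables (all but TH and DBH) and 1 in each RPE1 table. Of 8 genes of immortalised epithelial or mesenchymal cells, 5 were in the CHP-134 tables and 8 in the RPE1 tables, and of 5 Schwann cell and fibroblast genes 4 were in the knockout table and 2 in each of the others. Of 5 genes of differentiated retinal pigment epithelium only MITF passed that count in the RPE1 tables, and RPE65 was at most 0.173.

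In the RPE1 knockout, CCND1, CCND3, CDKN1B and CDKN2B rose and CCNE1 fell, 5 of 8 usable members where 53.6% of all usable genes were called. In CHP-134 clone 1, CCND1, CDKN1C, CDKN2A and CDKN2C rose and CCNE2 fell, 5 of 8 where 18.7% of all usable genes were called. In CHP-134 clone 2, CCND1, CDKN1C, CDKN2A, CDKN2C, CCND3 and CCNE1 rose and CCNE2 fell, 7 of 8 where 46.2% of all usable genes were called. After doxycycline 0 of 6 usable members were called in TetOn clone 4, where 1.95% of all usable genes were. In TetOn clone 5 CDKN2A and CDKN2B fell, 2 of 8 where 2.97% of all usable genes were called. In TetOn clone 4 the count was also 0 at an unadjusted p under 0.05 (two-sided normal p of the fold change over its SE) and 0 with q recomputed from it.

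Calls upward made up 26.6%, 9.6%, 22%, 0.716% and 0.795% of all usable genes in that order of comparisons, and calls downward 26.9%, 9.07%, 24.2%, 1.23% and 2.17%. The 5 of 8 called in the knockout are therefore close to the background, and the 2 of 8 in TetOn clone 5 rest on a pair of neighbouring genes. With test statistics divided by their central spread, 1 member was called in the knockout, 3 in CHP-134 clone 1, 1 in CHP-134 clone 2 and 0 in each TetOn clone. The median log2 fold change of the usable members was 0.179 in the knockout, 0.426 in CHP-134 clone 1, 0.493 in CHP-134 clone 2, 0.047 in TetOn clone 4 and -0.014 in TetOn clone 5. Over all usable genes it lay between -0.012 and 0.002 in the 5 tables.

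**Figure D1:**
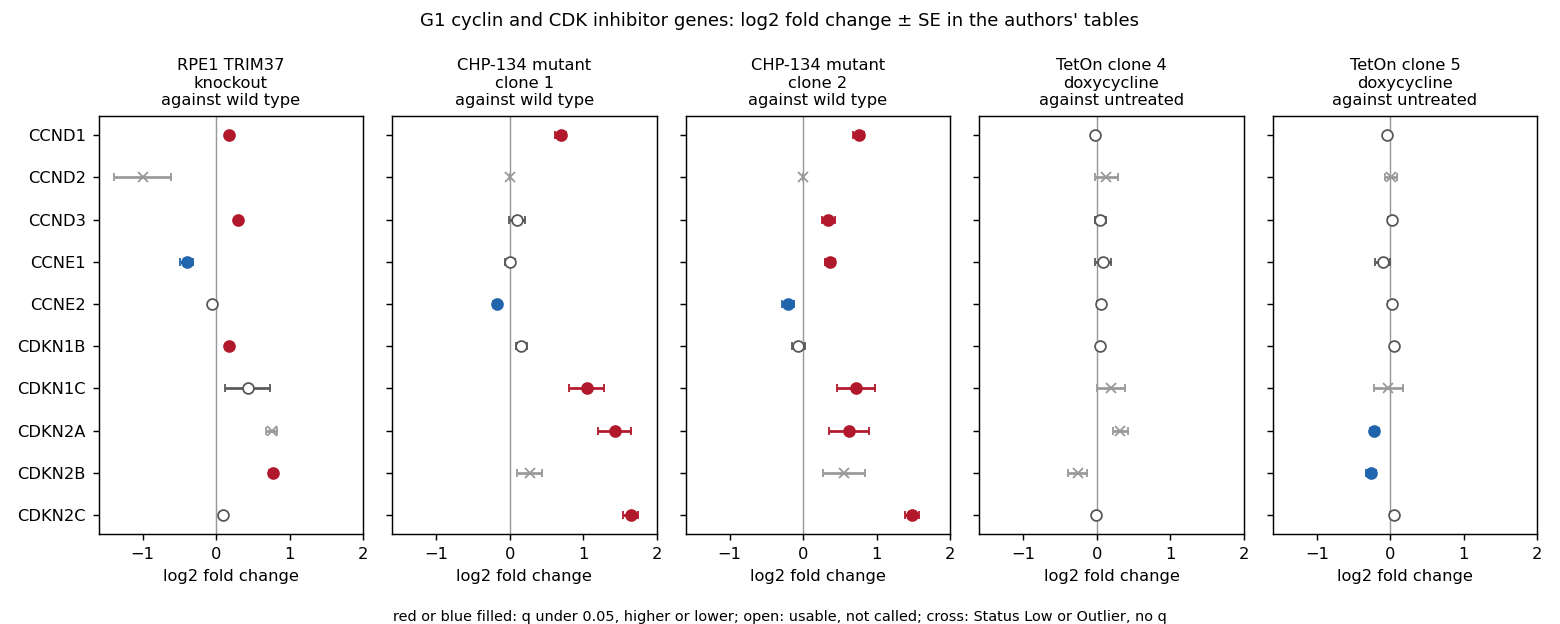
Log2 fold change (x axis) of each of the 10 genes (y axis) in each of the 5 comparisons, altered group over its control, with bars of ± SE from the authors' deposited tables. Filled points were called at q under 0.05, open points were usable and not called, and crosses had the Status Low or Outlier. CDKN2C at 1.65 and 1.48 in the CHP-134 clones lies farthest to the right, and the TetOn points lie close to 0.

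To set the levels of the genes side by side, mean counts were divided by the length of the longest protein-coding GENCODE v29 transcript in kb and by the table's summed mean count, and scaled to a sum of 1000000. The tables were normalised separately, and no spread is available, so these levels and their order are a description, and no pair of neighbours in that order can be said to differ. CCND1, the D cyclin of most epithelial cells, was the most abundant of the 10 in all 5 tables, at 276 in the RPE1 knockout table, 102 and 104 in the tables of CHP-134 clones 1 and 2, and 271 and 287 in those of TetOn clones 4 and 5. CDKN2A came next in RPE1, at 57.9, 73.8 and 77.3 in the knockout and TetOn clone 4 and 5 tables, but stood at 2.51 and 1.52 in the CHP-134 tables. CDKN1B was at 42.1 in the knockout table, 41.8 and 38.5 in the CHP-134 tables, and 61.0 and 33.0 in the TetOn clone 4 and 5 tables. CCND3 lay between 19.4 and 25.3, CCNE2 between 11.5 and 18.7 and CDKN2C between 9.23 and 21.3 over the 5 tables. In both CHP-134 tables the order was CCND1, CDKN1B, CCND3, CCNE2, CCNE1, CDKN2C, CDKN2A and CDKN1C, with the last of these at 1.41 and 1.11.

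CDKN2B, at 6.90 in the knockout table, was at 0.007 and 0.009 in the CHP-134 tables on this scale, with mean counts of 0.782 and 1.03. CCNE1 ran the other way, at 12.3 and 14.1 in the CHP-134 tables and at 3.36, 3.43 and 4.04 in those of the knockout, TetOn clone 4 and TetOn clone 5. CCND2 was nearly silent throughout, with a mean count of 1.46 in the knockout table, 0 in both CHP-134 tables, 3.15 in TetOn clone 4 and 0.865 in TetOn clone 5. It had the Status Low in every table, and no change of it can be read.

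Because the groups of a table are of equal size, the mean count and the fold change together imply a mean count for each group. The wild type CHP-134 libraries enter 2 tables and give a check. Over 12579 usable genes the wild type mean implied by the clone 2 table was 1.06 times that implied by the clone 1 table (median), with the middle 50% of genes between 0.086 and 0.092 on the log2 scale. The group means given for each gene are such implied values.

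**Figure D2:**
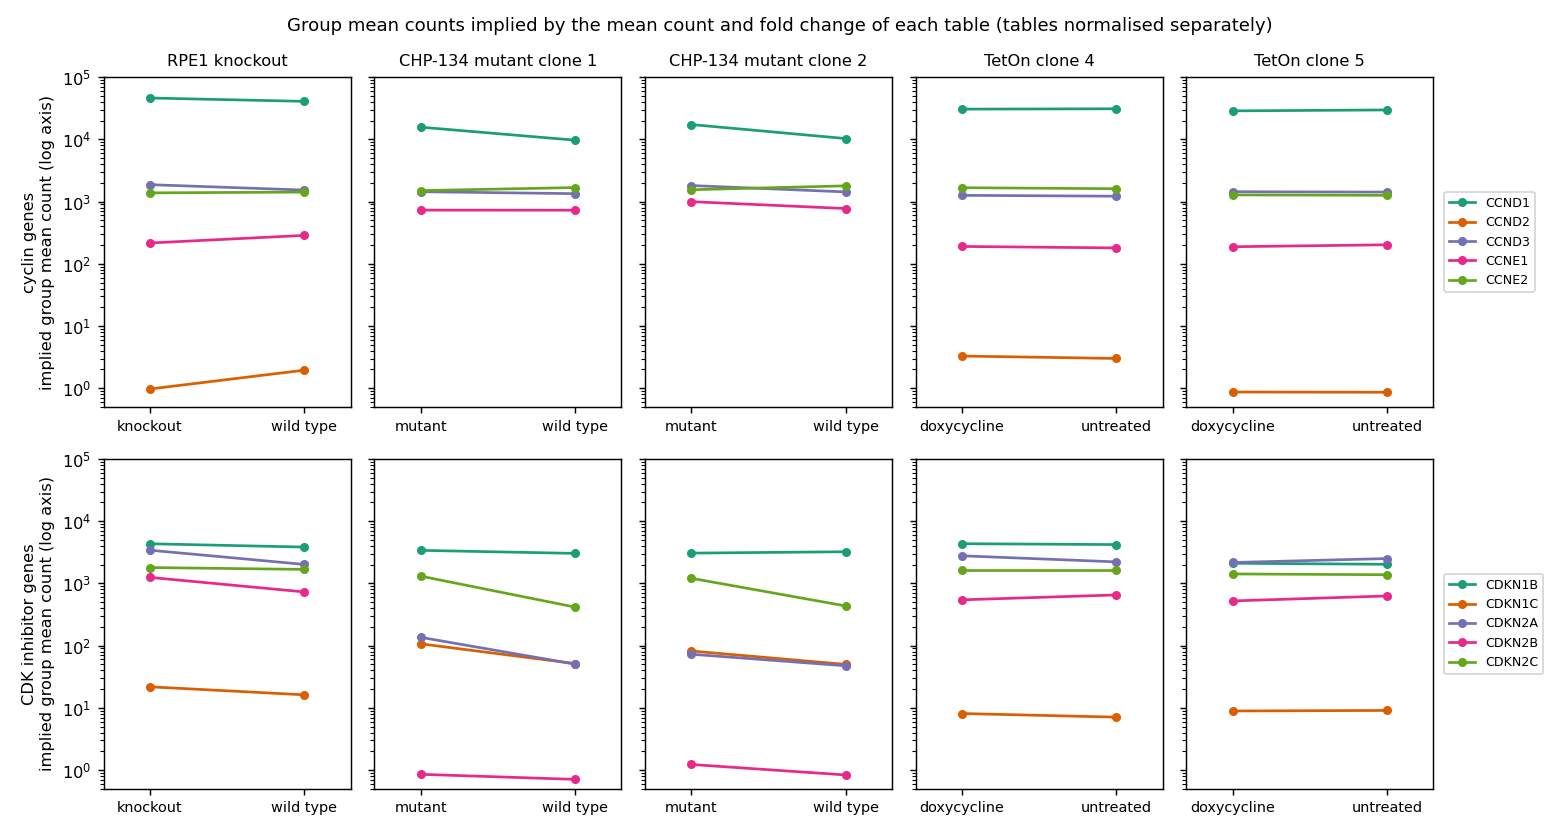
Implied group mean count (y axis, log scale) of the cyclin genes (top) and the CDK inhibitor genes (bottom) in the altered group (left end of each line) and its control (right end), per comparison. CCND2 is not drawn in the CHP-134 panels, where its mean count was 0. CDKN2C and CDKN2A rise above wild type in the CHP-134 panels, and the lines of the TetOn panels are nearly level.

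CCND1 encodes cyclin D1, the cyclin through which mitogen signals reach CDK4 and CDK6. Its implied mean count was 46200 in the knockout against 40800 in wild type RPE1, a rise of 0.18 on the log2 scale, SE 0.0221, q = 1.76e-15 in the authors' deposited table. In CHP-134 it was 15700 in clone 1 against 9700 in wild type, a rise of 0.69, SE 0.0742, q = 1.81e-18, and 17300 in clone 2 against 10300 in wild type, a rise of 0.755, SE 0.075, q = 3.73e-22 in the authors' deposited tables. The rise was smaller in the knockout than in clone 1 by 0.51 (difference -0.513, SE 0.0774, 95% interval -0.665 to -0.361, adjusted p = 5.19e-10), where the p is a two-sided normal p of the difference over its SE, adjusted over 11194 genes with the Benjamini-Hochberg method. Against clone 2 the difference was -0.574, SE 0.0782, adjusted p = 2.64e-12. Of all genes tested, 34.1% differed between the knockout and clone 1 and 46.5% between the knockout and clone 2.

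In the authors' deposited tables the log2 fold change of CCND1 after doxycycline was -0.02 in TetOn clone 4 (95% interval -0.073 to 0.034, q = 0.924) and -0.046 in TetOn clone 5 (95% interval -0.102 to 0.010, q = 0.639). A change of the size seen in the knockout, in either direction, lies outside both intervals. Around CCND1 on chromosome 11, the 5 nearest usable genes on each side had a median log2 fold change of 0.02 in the knockout, 0.10 in clone 1 and 0.24 in clone 2, where 5 of the 10 neighbours rose.

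CCND3 encodes cyclin D3, the other D cyclin expressed in both lines. Its implied mean count was 1870 in the knockout against 1530 in wild type RPE1, and it rose by 0.29, SE 0.0398, q = 1.2e-12 in the authors' deposited table. In CHP-134 clone 2 it was 1810 against 1430 in wild type, a rise of 0.34, SE 0.0859, q = 0.000306, and in clone 1 it was 1440 against 1340 in wild type, with a log2 fold change of 0.098, SE 0.108, q = 0.587 in the authors' deposited tables. The clones are not shown to differ, since the difference of clone 2 minus clone 1 was 0.245 with a 95% interval from -0.025 to 0.516 (adjusted p = 0.219). In TetOn clones 4 and 5 CCND3 was at 0.05 and 0.023, q = 0.922 and 0.961, in the authors' deposited tables.

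CCNE1 and CCNE2 encode cyclins E1 and E2, which both activate CDK2 late in G1 and are themselves E2F targets. CCNE1 had an implied mean count of 216 in the knockout against 286 in wild type RPE1, and fell by 0.40, SE 0.0867, q = 1.33e-05 in the authors' deposited table. In CHP-134 it was 997 in clone 2 against 773 in wild type, a rise of 0.37, SE 0.0636, q = 9.71e-08, but 729 in clone 1 against 727 in wild type (0.0039, SE 0.0648, q = 0.978), in the authors' deposited tables. CCNE1 was the 1 member of 8 tested that differed between the CHP-134 clones, by 0.362 (clone 2 minus clone 1, SE 0.0908, adjusted p = 0.000711), where 20.5% of all genes tested did. The clones share their wild type libraries, which makes this test conservative on that account alone. The replicates may not be separate cultures, so its p may still measure technical spread. CCNE1 lies on chromosome 19, whose 761 usable genes had a median of 0.216 in clone 2. With each chromosome's median subtracted the rise in clone 2 was 0.15 (adjusted p = 0.0443) and the difference between the clones 0.215 (adjusted p = 0.0782). The 10 nearest neighbours of CCNE1 had a median of 0.0034 in clone 2.

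CCNE1 also moved in opposite directions in the knockout and in CHP-134 clone 2, and the difference between them was -0.767, SE 0.108 (adjusted p = 1.13e-11). Against clone 1 the difference was -0.405, SE 0.108 (adjusted p = 0.000996). In TetOn clones 4 and 5 CCNE1 was at 0.086 and -0.106, q = 0.913 and 0.848, in the authors' deposited tables.

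CCNE2 was lower in both CHP-134 clones, with implied mean counts of 1500 in clone 1 against 1680 in wild type and 1550 in clone 2 against 1790 in wild type. Its log2 fold changes were -0.17, SE 0.0545, q = 0.0141 in clone 1 and -0.207, SE 0.0784, q = 0.021 in clone 2 in the authors' deposited tables. In clone 2 the 10 nearest genes on chromosome 8 had a median of -0.239 and 6 of them fell; with the chromosome's median subtracted CCNE2 was at -0.171 and its call ended (adjusted p = 0.0642). CCNE2 overlaps INTS8, an Integrator subunit gene, which was at -0.152 and -0.234 in clones 1 and 2 in the authors' deposited tables. CCNE2 also overlaps NDUFAF6, which was at 0.0145, q = 0.925 in clone 1 and -0.245, q = 0.012 in clone 2 in those tables. In the knockout NDUFAF6 was at 0.196, q = 0.0461 in the authors' deposited table. Since the strand setting is not given in the sources used here, reads of these genes may be shared. In the authors' deposited tables CCNE2 was at -0.052 in the knockout, SE 0.0376, q = 0.249, and in TetOn clones 4 and 5 at 0.055 and 0.017, q = 0.877 and 0.968.

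CDKN1B encodes p27, the CIP/KIP inhibitor that holds CDK2 inactive in resting cells. Its implied mean count was 4340 in the knockout against 3840 in wild type RPE1, and it rose by 0.18, SE 0.0254, q = 1.38e-11 in the authors' deposited table. CDKN1B lies on chromosome 12, whose 628 usable genes had a median of 0.504 in this comparison. With that median subtracted CDKN1B was at -0.326 (adjusted p = 1.58e-36), so its direction turned. Its own neighbourhood was mixed, as the 10 nearest genes had a median of 0.059 and 3 rose and 3 fell. CCND2, on the same chromosome, had neighbours with a median of 0.449, of which 9 rose and 1 fell. In CHP-134 clones 1 and 2 CDKN1B was at 0.16, SE 0.0799, q = 0.156 and -0.07, SE 0.0872, q = 0.535, and after doxycycline at 0.044 and 0.051 in TetOn clones 4 and 5, q = 0.785 and 0.752, in the authors' deposited tables. The knockout minus clone 2 gave 0.248, SE 0.0908 (adjusted p = 0.0163), and -0.314 with chromosome medians subtracted (adjusted p = 0.00202). The knockout minus clone 1 gave 0.019 (adjusted p = 0.896), and -0.52 with chromosome medians subtracted (adjusted p = 9.83e-09).

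CDKN1C encodes p57, an imprinted CIP/KIP inhibitor of embryonic growth. It was a low gene in both lines. The implied mean count was 107 in CHP-134 clone 1 against 51.5 in wild type, a rise of 1.05, SE 0.238, q = 0.0002, and 82 in clone 2 against 50 in wild type, a rise of 0.715, SE 0.259, q = 0.0154 in the authors' deposited tables. The 10 nearest genes on chromosome 11 had medians of 0.164 and 0.162 in clones 1 and 2. Its nearest usable neighbour KCNQ1OT1, a long noncoding RNA of the same imprinted domain, was at 0.232, q = 0.466 in clone 1 and -0.299, q = 0.27 in clone 2 in the authors' deposited tables. In the RPE1 knockout CDKN1C had a mean count of 19.0 and a log2 fold change of 0.43 with a 95% interval from -0.171 to 1.03, q = 0.237 in the authors' deposited table. It was Low in both TetOn tables, with mean counts of 7.6 and 9.0 in TetOn clones 4 and 5.

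CDKN2C encodes p18, an INK4 inhibitor that is itself expressed in cycling cells and is known as an E2F target. It showed the largest change of the 10 genes in both CHP-134 clones. The implied mean count was 1310 in clone 1 against 417 in wild type, a 3.14-fold rise (1.65 on the log2 scale, SE 0.103), and 1210 in clone 2 against 435 in wild type, a 2.79-fold rise (1.48, SE 0.0915), with q printed as 0 in both of the authors' deposited tables. By size of the log2 fold change it stood at place 12 of the increases among 12791 usable genes in clone 1 and at place 87 among 12771 in clone 2. The difference of clone 2 minus clone 1 was -0.17 with a 95% interval from -0.44 to 0.10 (adjusted p = 0.435). Its neighbours on chromosome 1 had medians of 0.057 and -0.016 in clones 1 and 2, and the adjacent genes FAF1 and RNF11 were at 0.013 and 0.101 in clone 1 and at -0.032 and -0.18 in clone 2 in the authors' deposited tables, where RNF11 in clone 2 alone was called (q = 0.0407).

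In RPE1 CDKN2C was not called. It had an implied mean count of 1800 in the knockout against 1680 in wild type, and the authors' deposited table gave 0.093, SE 0.046, q = 0.0762. The knockout differed from clone 1 by -1.56, SE 0.113 (adjusted p = 2.79e-41) and from clone 2 by -1.39, SE 0.102 (adjusted p = 6.25e-40). In the authors' deposited tables CDKN2C after doxycycline was at -0.0074, SE 0.0453, q = 0.99 in TetOn clone 4 and 0.046, SE 0.05, q = 0.87 in TetOn clone 5.

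The 3 annotated starts of CDKN2C are shown because this gene changed most in CHP-134. Each window runs from 250 bases before to 50 bases after a start on the plus strand of GRCh38.p14 (RefSeq), and capitals mark matches on either strand to an E2F site (spelled TTCCCGC, or else spelled TTCGCGC, or else spelled TTGGCGC, or else spelled TTGCCGC) or an E-box (CACGTG).
CDKN2C upstream start, chr1:50960495-50960794: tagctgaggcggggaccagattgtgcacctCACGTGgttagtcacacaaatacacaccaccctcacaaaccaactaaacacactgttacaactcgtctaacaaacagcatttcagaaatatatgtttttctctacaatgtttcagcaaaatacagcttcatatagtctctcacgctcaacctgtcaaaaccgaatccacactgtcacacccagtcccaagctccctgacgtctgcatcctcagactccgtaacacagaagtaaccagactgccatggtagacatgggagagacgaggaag
CDKN2C middle start, chr1:50968456-50968755: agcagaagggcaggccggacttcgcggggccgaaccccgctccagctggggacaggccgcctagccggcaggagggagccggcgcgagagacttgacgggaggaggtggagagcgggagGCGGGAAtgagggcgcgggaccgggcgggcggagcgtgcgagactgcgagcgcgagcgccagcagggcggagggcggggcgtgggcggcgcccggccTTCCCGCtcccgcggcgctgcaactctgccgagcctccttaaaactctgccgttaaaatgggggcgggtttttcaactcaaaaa
CDKN2C downstream start, chr1:50969995-50970294: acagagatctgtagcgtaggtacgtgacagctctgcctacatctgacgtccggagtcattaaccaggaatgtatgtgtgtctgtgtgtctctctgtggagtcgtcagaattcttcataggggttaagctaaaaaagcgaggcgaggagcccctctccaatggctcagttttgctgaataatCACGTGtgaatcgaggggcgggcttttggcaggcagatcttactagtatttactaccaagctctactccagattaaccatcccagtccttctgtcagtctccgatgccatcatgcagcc
The middle window held 2 E2F matches, whose first bases lie at -131 and -34 relative to the start, and 6 GC boxes (GGGCGG, on either strand). The upstream and downstream windows held 1 E-box each, and the downstream one also 1 GC box. Among 35116 such windows of all genes, 13% held an E2F match, 7.26% an E-box and 45% a GC box. RefSeq windows were matched for 6 of the 10 genes, and not for CCND1, CCND2, CCNE2 and CDKN1C. No other of the 11 windows of the members held an E2F match or an E-box. A match is only a run of letters, and the tables do not say which start was used.

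CDKN2A encodes p16 and, from the upstream first exon, ARF, and the tables give a single value for both products. It rose in both CHP-134 clones from a low level. The implied mean count was 136 in clone 1 against 50.5 in wild type, a rise of 1.43, SE 0.226, q = 1.63e-08, and 72.8 in clone 2 against 47.4 in wild type, a rise of 0.62, SE 0.27, q = 0.047 in the authors' deposited tables. The second call lies just under the threshold. The difference of clone 2 minus clone 1 was -0.809, with a 95% interval from -1.5 to -0.119, and did not pass after adjustment (adjusted p = 0.089). The neighbour MTAP, a methionine salvage gene, was at -0.236, q = 9.35e-06 in clone 1 and at -0.104, q = 0.157 in clone 2 in the authors' deposited tables.

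CDKN2B encodes p15, the INK4 inhibitor best known as a TGF-beta target, and lies beside CDKN2A on chromosome 9. In the RPE1 knockout its implied mean count was 1250 against 730 in wild type, a rise of 0.77, SE 0.0494, with q printed as 0 in the authors' deposited table. CDKN2A had a nearly equal log2 fold change of 0.756, SE 0.0779 in that table, with implied mean counts of 3420 in the knockout and 2020 in wild type, but carried the Status Outlier with its q set to 1. With Outlier genes kept and q recomputed it passed (adjusted p = 2.78e-21). MTAP rose by 0.245, q = 4.24e-13 in the knockout in the authors' deposited table, while the median of the 10 genes nearest to CDKN2B was -0.067.

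After doxycycline both genes fell in TetOn clone 5. CDKN2A had an implied mean count of 2170 in treated cells against 2510 in untreated cells, a fall of 0.216 on the log2 scale (-0.216, SE 0.0635, q = 0.0267 in the authors' deposited table). CDKN2B was at 523 in treated cells against 629 in untreated cells, a fall of 0.264 (-0.264, SE 0.0736, q = 0.0157 in the authors' deposited table). In TetOn clone 4 both genes carried the Status Outlier, with CDKN2A at 0.322, SE 0.0979 and CDKN2B at -0.262, SE 0.125 in the authors' deposited table. With Outlier genes kept, a choice made for the difference after seeing the data, CDKN2A passed upward in TetOn clone 4 (adjusted p = 0.0495), CDKN2B did not pass (adjusted p = 0.419), and CDKN2A differed between the TetOn clones by -0.538 (clone 5 minus clone 4, adjusted p = 0.00327). Among the 6 genes usable in both TetOn tables none differed, 0 also at an unadjusted p under 0.05, where 0.221% of all genes tested did at an adjusted p under 0.05. The antisense RNA CDKN2B-AS1, which overlaps both genes in RefSeq, was Low in all 5 tables, with mean counts of 3.76 to 6.46.

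The starts of the locus are shown because the value of CDKN2A joins 2 of them. Both genes are read from the minus strand of GRCh38.p14, and capitals would mark E2F matches or E-boxes as above, of which these windows held none.
CDKN2A, ARF start, chr9:21995275-21995574: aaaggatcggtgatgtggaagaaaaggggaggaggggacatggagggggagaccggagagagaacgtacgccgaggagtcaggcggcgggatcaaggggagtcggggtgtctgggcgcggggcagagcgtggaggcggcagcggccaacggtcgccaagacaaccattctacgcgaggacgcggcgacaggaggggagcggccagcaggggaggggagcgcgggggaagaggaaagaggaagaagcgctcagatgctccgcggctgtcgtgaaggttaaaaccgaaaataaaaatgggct
CDKN2A, p16 start, chr9:21974808-21975107: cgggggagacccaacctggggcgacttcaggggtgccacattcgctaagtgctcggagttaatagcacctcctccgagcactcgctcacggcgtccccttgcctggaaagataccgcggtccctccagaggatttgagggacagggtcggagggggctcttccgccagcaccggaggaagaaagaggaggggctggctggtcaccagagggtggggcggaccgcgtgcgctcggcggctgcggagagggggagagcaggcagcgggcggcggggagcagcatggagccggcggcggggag
CDKN2B start, chr9:22009256-22009555: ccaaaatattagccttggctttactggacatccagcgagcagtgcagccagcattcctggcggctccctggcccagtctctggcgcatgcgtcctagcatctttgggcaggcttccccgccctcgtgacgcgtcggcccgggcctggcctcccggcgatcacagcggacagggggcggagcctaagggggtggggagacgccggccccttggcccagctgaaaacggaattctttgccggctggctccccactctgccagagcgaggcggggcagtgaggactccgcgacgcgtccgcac
The p16 window and the CDKN2B window held 2 GC boxes each and the ARF window none. The GC content was 63.3% in the ARF window, 69% in the p16 window and 67.3% in the CDKN2B window.

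**Figure D3:**
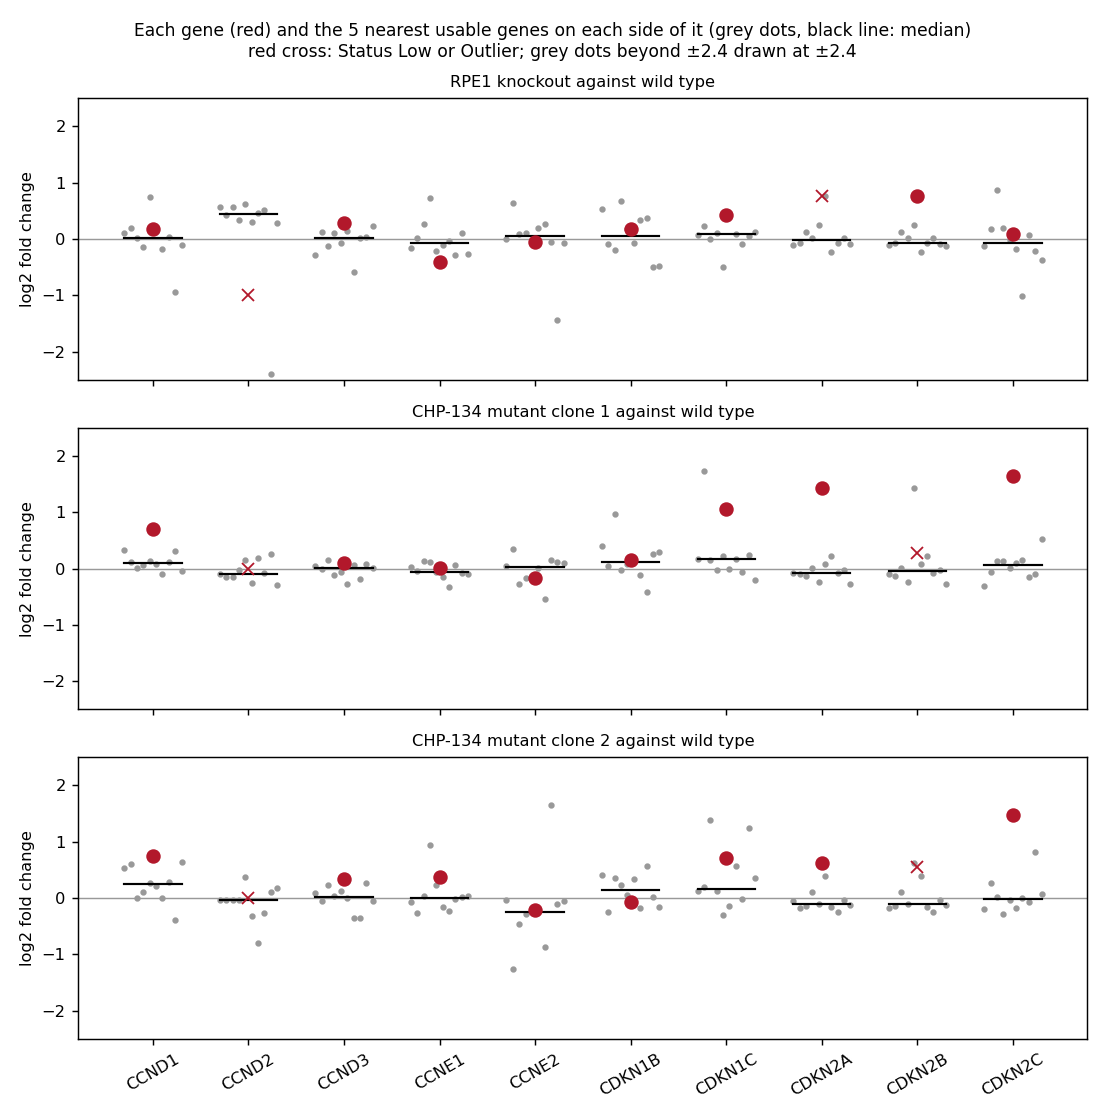
Log2 fold change (y axis) of each of the 10 genes (red) and of the 5 nearest usable genes on each side in RefSeq order (grey dots, with their median as a black line), in the RPE1 knockout and the 2 CHP-134 mutant clones, each against wild type. CDKN2C, CDKN2A and CCND1 stand above all of their neighbours in the CHP-134 panels, and in the RPE1 panel 9 of the 10 neighbours of CCND2 lie between 0.29 and 0.623 and the other (NTF3) at -4.69.

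The rest of the G1 pathway was described with lists of other genes. Counts of called genes in a list stand beside the shares called over all usable genes. These were 53.6% in the knockout, 18.7% in clone 1, 46.2% in clone 2, 1.95% in TetOn clone 4 and 2.97% in TetOn clone 5. No list was tested as a set. In the authors' deposited tables the CDK inhibitor gene CDKN1A, a p53 target outside the 10 genes, rose by 0.41 in the knockout, 1.08 in clone 1 and 1.74 in clone 2 and fell by 0.138 in TetOn clone 5. It carried the Status Outlier in TetOn clone 4. CDKN2D, the fourth INK4 gene, rose by 0.454, q = 0.00279 in clone 1 and was at 0.031 in clone 2 and 0.055 in the knockout in the authors' deposited tables.

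Of 8 G1 kinase and activator genes, 3 rose and 1 fell in the knockout, 1 fell and 0 rose in clone 1, and 4 fell and 2 rose in clone 2. In the knockout the D cyclin partner CDK4 rose by 0.705, the E cyclin partner CDK2 by 0.478 and CDK6 by 0.195 in the authors' deposited table, and CDK4 and CDK2 lie on chromosome 12, whose median was 0.504. CDK6 fell by 0.949 in clone 2 (q = 1.32e-39) and was at -0.0061 in clone 1 in the authors' deposited tables. Of 13 pocket protein, E2F and DP genes, 5 rose and 5 fell in the knockout. In clone 1, 3 of them fell and 0 rose, and in clone 2, 3 fell and 3 rose. RB1 fell by 0.226 in the knockout, 0.115 in clone 1 and 0.195 in clone 2, with q = 0.0497 in each CHP-134 clone, in the authors' deposited tables.

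Of 16 usable E2F targets of S phase entry, 6 fell and 0 rose in clone 1, with a median log2 fold change of -0.10, and 9 fell and 0 rose in clone 2, with a median of -0.188. Calls downward made up 9.07% and 24.2% of all usable genes in clones 1 and 2. CDT1, of the same list, was left out in both clones with the Status Outlier, at 0.217, SE 0.179, in clone 1 and 0.395, SE 0.178, in clone 2. In the knockout 3 of 17 rose and 3 fell, with a median of 0.012. The licensing factor gene CDC6 was at -0.179 in clone 1 and -0.332 in clone 2, and the polymerase gene POLA1 at -0.202 and -0.304, all called, in the authors' deposited tables. Of 16 genes for the turnover of G1 cyclins and inhibitors, 5 rose and 1 fell in the knockout, 1 fell in clone 1, and 4 fell and 2 rose in clone 2. SKP2, the ubiquitin ligase subunit that targets p27, fell by 0.238 and 0.21 in clones 1 and 2 in the authors' deposited tables. FBXO4, which targets cyclin D1, fell by 0.79 in the knockout and was not called in the CHP-134 clones, at mean counts of 12.2 and 13.3. In the same list FBXO31 rose by 0.153 in the knockout and 0.398 in clone 2, and AMBRA1 was not called in the knockout (0.0741, q = 0.0927). The part of turnover genes in the CCND1 values was not tested.

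Of 8 Polycomb genes that act on the CDKN2A locus, 5 rose and 1 fell in the knockout, 1 rose and 4 fell in clone 1, and 2 rose and 4 fell in clone 2. The shares called over all usable genes were 53.6%, 18.7% and 46.2% in that order. BMI1, a repressor of CDKN2A, rose by 0.708 in the knockout, 0.791 in clone 1 and 0.876 in clone 2 in the authors' deposited tables. Its mean counts were low, at 35.2, 37.4 and 40.4 in that order, with SE of 0.253, 0.247 and 0.281. CBX7, of the same list, fell by 0.372 in the knockout, rose by 1.0 in clone 2 and was at 0.0453 in clone 1 without a call. EZH2, the methyltransferase of the same system, was at 0.166 in the knockout and at -0.12 and -0.362 in clones 1 and 2, all called, in the authors' deposited tables. Of 4 FOXO and forkhead genes 2 rose and 2 fell in the knockout, and 0 of 3 usable were called in each CHP-134 clone. FOXO1, an activator of CDKN1B, was at 1.68 in the authors' deposited table of the knockout, and FOXM1, on chromosome 12, at 0.567. FOXO3 and FOXO4, of the same family as FOXO1, went the other way, at -0.383 and -0.455 in that table.

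Output genes of the ERK kinases, whose signal drives CCND1, rose at 9 and fell at 2 of 12 in the knockout, and rose at 4 of 8 usable in clone 1 and at 4 of 6 usable in clone 2, with 0 falling in each clone. The medians were 0.621, 0.659 and 1.05 on the log2 scale. Calls upward made up 26.6%, 9.6% and 22% of all usable genes in the same order. PHLDA1 was left out in both clones with the Status Outlier, at 0.183 in clone 1 and -0.904, SE 0.309, in clone 2. The genes that fell in the knockout were EGR1, by 0.61, and DUSP5, by 0.159. EGR1 rose by 1.78 and 1.17 in clones 1 and 2. In those clones DUSP6 had mean counts of only 13.6 and 16.5. In clone 1 DUSP5 and ETV5 were usable without a call, at mean counts of 10.4 and 12.4, and the median lay between DUSP6 and DUSP5. SPRY4, ETV4 and FOSL1 were Low in both clones, and DUSP5 and ETV5 were Low in clone 2. Since the mean count runs over both groups, a gene near 10 may be usable only through the group where it is higher. After doxycycline 0 rose and 2 fell of 12 in TetOn clone 4, and 0 rose and 3 fell of 11 in TetOn clone 5. The phosphatase gene DUSP4 in the authors' deposited tables rose by 1.55 in the knockout, 2.68 in clone 1 and 1.51 in clone 2 and was at -0.186 and -0.194 in TetOn clones 4 and 5, called in both. DUSP6, on chromosome 12, rose by 1.33 in the knockout and by 0.928 in clone 2, was at 0.63 in clone 1 without a call, and was at -0.219 and -0.264 in TetOn clones 4 and 5, called in both of the authors' deposited tables. The part of ERK output in the CCND1 values was not tested. In the TetOn clones, 0 and 1 of the E2F targets, 0 and 0 of the Polycomb genes and 1 and 1 of the turnover genes were called.

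**Figure D4:**
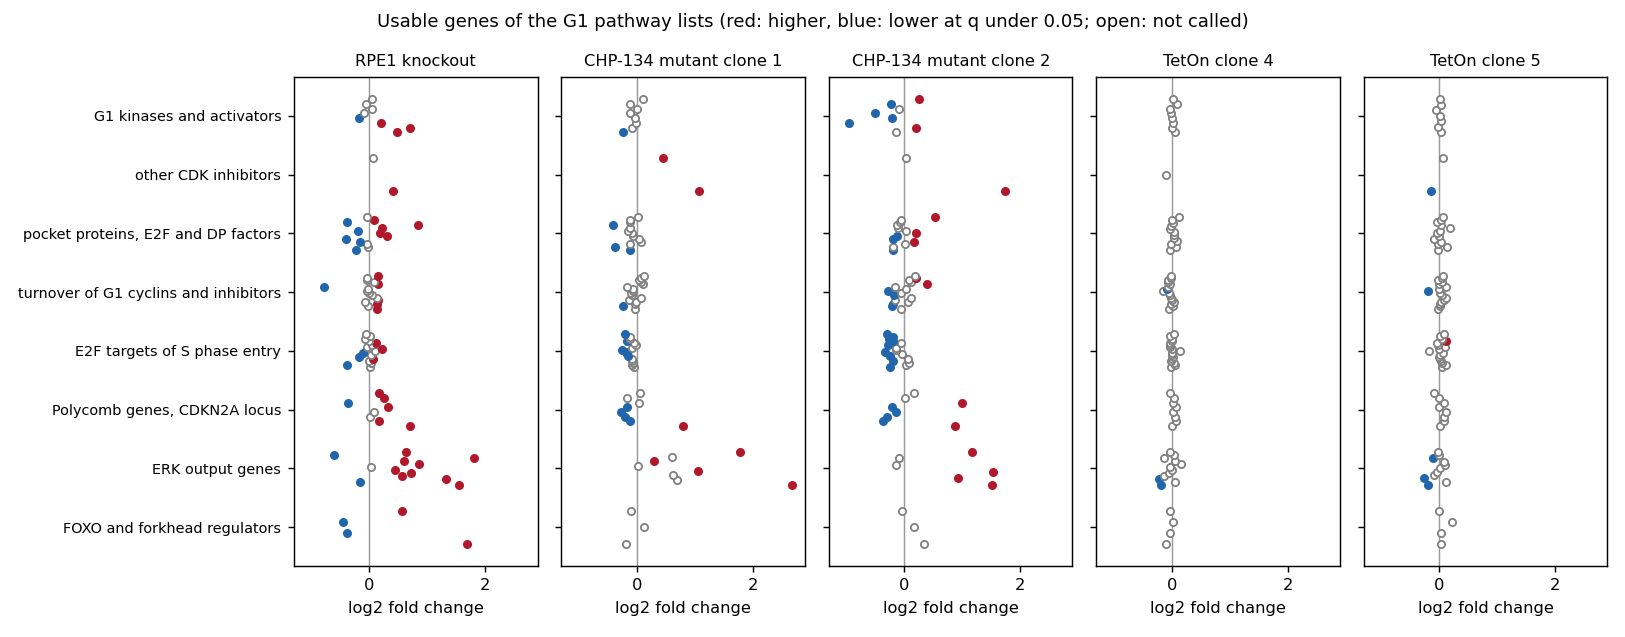
Log2 fold change (x axis) of the usable genes of 8 G1 pathway lists (y axis) in the 5 comparisons, altered group over its control. Filled points were called at q under 0.05 and open points were not. The ERK output genes reach 2.68 in CHP-134 clone 1, and the E2F targets called in the CHP-134 panels all lie below 0.

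CCND1 was the 1 member usable in all 5 tables and called in at least 3. Among 10284 genes usable in all 5, those nearest to it by Euclidean distance over the 5 log2 fold changes were the ephrin receptor gene EPHA2 (distance 0.161), the polo-like kinase gene PLK3 (0.178) and the death receptor gene FAS (0.194). In the authors' deposited tables EPHA2 was at 0.324 in the knockout, 0.689 and 0.686 in CHP-134 clones 1 and 2, and -0.0068 and -0.069 in TetOn clones 4 and 5. The 2 CHP-134 comparisons share their wild type libraries, so their values are not independent of each other.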

How the data were processed

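The 39 libraries were grouped by title. STAR and DESeq2 are named in the submitters' processing notes; how each was run, with which genome, annotation and strand setting, is not given in the sources used here. The 5 deposited tables hold, per the file headers, the mean count, log2 fold change, SE and q-value of each gene, to 3 significant digits, so a q of 0 is one too small to print. Without counts per library depth is unknown. Over usable genes the median SE given by the authors ranged from 0.0551 to 0.0887. The median SE was smaller at mean counts up to 1 (0.0555 to 0.236) than from 3 to 10 (0.181 to 0.409), so the fold changes of low genes may have been drawn towards 0 and understated.

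The planned count model could not be fitted, and the deposited q was used as it stands. Pairs of comparisons were set against each other by subtracting their log2 fold changes and dividing by the combined SE (square root of SE squared plus SE squared). The two-sided normal p was adjusted by the Benjamini-Hochberg method over all genes usable in both, in Python 3.11.15 with scipy 1.17.1. Simulated data were drawn with normal errors of the deposited SE and without shared controls. Such data cannot show how the test behaves on the real spread. Chromosomes and gene order came from RefSeq GRCh38.p14 by symbol (20897 of 23710 matched). Promoter windows are RefSeq's. The 10 genes, the gene lists and the tests were chosen with earlier results of these data known. From each list, up to 4 called genes with the largest change could be named. EZH2, genes given beside a named gene for comparison, and list genes that were unusable or at low counts were added after their values were seen. Alternatives were other thresholds, a minimum fold change, a mean count of at least 50, test statistics rescaled to their own spread, subtraction of chromosome medians, keeping Outlier genes and q recomputed.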

Additional observations from a re-analysis of the deposited data

Results flagged for a closer look

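The change of a gene differed between comparisons, by the test of the difference itself, in 8 cases. CCNE1 differed between CHP-134 clone 2 and clone 1 by 0.362. Between the RPE1 knockout and CHP-134 clone 1 the difference was -0.513 for CCND1, -0.405 for CCNE1 and -1.56 for CDKN2C. Between the knockout and CHP-134 clone 2 it was -0.574 for CCND1, -0.767 for CCNE1, 0.248 for CDKN1B and -1.39 for CDKN2C, all on the log2 scale. Genes on the whole often differed between these comparisons, 20.5%, 34.1% and 46.5% of those tested in that order. The lines also differ in everything else that separates RPE1 from CHP-134, which cannot be told apart from the change in TRIM37.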

How the results depend on the processing

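Of the recomputed counts of members called, or differing between comparisons, 47 stayed within 1.5 times the reported count and 13 did not. The 47 include counts of 0 that stayed at 0, in TetOn clone 4 and between the TetOn clones, which had no call to lose. Of the recomputed values of single members, 405 stayed on their side of the threshold, 33 lost the call, 8 gained one and 2 called values turned. A turn was counted only for called members. CCNE1 in CHP-134 clone 1, not called, went from 0.00386 to -0.0563 with chromosome medians subtracted and is among the 405. Only the subtraction of chromosome medians could alter a log2 fold change, so direction could not turn under the other settings. When test statistics were divided by their central spread, 1 member was called in the RPE1 knockout (CDKN2B, adjusted p = 0.000376), 3 in CHP-134 clone 1 (CCND1, CDKN2A and CDKN2C), 1 in clone 2 (CDKN2C, adjusted p = 3.18e-05) and 0 in TetOn clone 5; over all usable genes this left 9.72%, 1.85%, 1.97% and 2.08% called. With a change of at least 1.5-fold, 1 of 8 members was called in the knockout (12.7% of all usable genes), 4 of 8 in clone 1 (3.71%), 4 of 8 in clone 2 (11.8%) and 0 of 8 in TetOn clone 5 (0.0902%). At q under 0.01, 4 of 8 were called in clone 2 (34.6%) and 0 of 8 in TetOn clone 5 (1.97%). Keeping Outlier genes gave 1 of 8 in TetOn clone 4 (2.03%) and, chosen after seeing the data, 1 of 8 differing between the TetOn clones (0.254%). Between the CHP-134 clones 2 of 8 differed at an adjusted p under 0.10 (25.1% of all genes tested) and 0 of 8 with chromosome medians subtracted (19.6%). Among called members the direction turned only for CDKN1B with chromosome medians subtracted, to -0.326 in the knockout and to -0.314 for the knockout minus clone 2. No replicate could be left out, since the tables hold no value per library, and no count model, other normalisation or low-count filter on counts was run. No paired analysis was possible because the columns hold comparisons and carry no replicate.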
